A study of Arabidopsis thaliana with 9 samples.

Results

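The gibberellin receptors of Arabidopsis thaliana are encoded by GID1A (AT3G05120), GID1B (AT3G63010) and GID1C (AT5G27320). Each gene has 1 probe set on the ATH1 array, and these 3 were taken by their probe set identifiers from 22746 plant probe sets. RNA of whole roots, taken 7 days after germination from plants on MS medium, was measured on 9 arrays. The 3 arrays of SCL3 OE came from plants overexpressing SCL3, the 3 of scl3 from the loss-of-function allele scl3-1, and the 3 of Col-0 from the wild type, and all were in the Col-0 ecotype. The labels name neither the promoter that drives SCL3 in SCL3 OE nor the number of independent lines.

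Gibberellins are growth hormones that promote root cell elongation and division. A GID1 receptor that has bound gibberellin takes hold of a DELLA protein, a growth repressor of the GRAS family, and the F-box proteins SLY1 and SLY2 bring that complex to ubiquitination and breakdown. The transcripts of GID1 receptors are known to fall when gibberellin is plentiful and to rise when DELLA proteins accumulate, and SCL3, itself a GRAS protein, is known to act against DELLA proteins in the root. The design compares roots with more SCL3, without it and with the wild-type level, and the comparison described here is how the receptor transcripts stood in each.

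The arrays of scl3 and of Col-0 did not each form 1 group. Clustering of the spiked-in control RNAs put scl3 and Col-0 replicate 3 in array set 2, scl3 and Col-0 replicates 1 and 2 in array set 1, and the 3 SCL3 OE arrays in array set 3. Over all plant probe sets, set 2 correlated with the other arrays at 0.818 to 0.833, and arrays within sets 1 and 3 at 0.959 to 0.969. These sets were defined after the data were seen and are not labelled by the study. Of the 16 listed photosynthesis genes, RCA, LHCB4.1 and PRK had a named probe set, and their summed signal was 50011 to 53588 in set 2, 1491 to 1880 in SCL3 OE and 476 to 700.3 in set 1. None of the 3 was at 0 on any array. Of 18 listed root genes, PYK10, EXPA7 and EXPA18 had a named probe set, and their summed signal was 17516 to 17803 in set 2, 19293 to 21482 in SCL3 OE and 34209 to 39733 in set 1. Most of that sum was PYK10, with a mean of 16916 in set 2, 17920 in SCL3 OE and 33226 in set 1. EXPA18 was also lower in SCL3 OE (1253 to 1406) than in set 1 (1596 to 2062). EXPA7 was higher in SCL3 OE (937 to 1126) than in set 1 (641 to 917), and lowest in set 2 (220 to 317). The part of these transcripts in the results was not tested. In RNA of a whole organ, fewer cells of a type and less RNA per cell cannot be told apart.

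The 3 receptors had different patterns. GID1A and GID1C had their highest signals on the set 2 arrays of scl3 and Col-0 and stood higher in SCL3 OE than on every set 1 array, while GID1B lay within a narrow range on all arrays but 1. Of all tested probe sets, 26.1% were likewise higher on each SCL3 OE array than on each set 1 array. On both set 2 arrays, 23.1% were higher than on every set 1 array. No receptor passed the test between genotypes when all 3 arrays of each were compared without regard to the sets. With the set 2 arrays marked or left out, GID1A was higher in SCL3 OE than in Col-0 by 1.92-fold and 1.99-fold. In these fits 33.6% and 38% of all tested probe sets passed, in that order. With the set as a random block, the log2 difference of GID1A was -0.14 and no tested probe set passed. Since the 3 SCL3 OE arrays are a set of their own, overexpression and an offset of that set cannot be told apart.

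GID1A, the receptor with a prominent part in stem elongation, had signals of 580.0, 540.7 and 583.9 in SCL3 OE. In scl3 the signals were 356.8, 357.8 and 1471, and in Col-0 they were 304.5, 266.8 and 1450, each in the order of replicates 1 to 3. The replicate 3 arrays of scl3 and Col-0 were the highest of all, the SCL3 OE arrays lay in between, and the other scl3 and Col-0 arrays were the lowest. Within a genotype, the highest signal was 1.08 times the lowest in SCL3 OE, 4.12 times in scl3 and 5.44 times in Col-0. The mean signal was 568 ± 23.9 in SCL3 OE, 729 ± 643 in scl3 and 674 ± 672 in Col-0 (SD, n = 3 each). Neighbours in the order scl3, Col-0, SCL3 OE did not differ beyond this spread.

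GID1B, the receptor known for its high affinity for gibberellin and for its expression in roots, had signals of 536.1, 550.9 and 580.1 in SCL3 OE. In scl3 they were 557.6, 583.6 and 829.7, and in Col-0 they were 567.7, 478.6 and 467.1. The scl3 replicate 3 array stood above all the others, and the Col-0 array of the same set was the lowest, so that set 2 held both extremes of GID1B. All 3 genotypes overlapped. The mean signal was 556 ± 22.4 in SCL3 OE, 657 ± 150 in scl3 and 504 ± 55.1 in Col-0 (SD, n = 3 each), and neighbours in the order scl3, SCL3 OE, Col-0 did not differ beyond this spread.

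GID1C, the receptor known to act with GID1A in stem growth, had signals of 145.6, 175.0 and 170.3 in SCL3 OE. In scl3 the signals were 108.0, 87.0 and 184.5, and in Col-0 they were 97.2, 116.3 and 321.3. The Col-0 replicate 3 array was the highest, followed by the scl3 array of the same set, and all SCL3 OE arrays lay above the set 1 arrays of both other genotypes. The mean signal was 164 ± 15.8 in SCL3 OE, 126 ± 51.3 in scl3 and 178 ± 124 in Col-0 (SD, n = 3 each). Neighbours in the order Col-0, SCL3 OE, scl3 did not differ beyond this spread. GID1C lay close to the filter on low values, which asked for a mean log2 signal over all arrays above 6.65, a signal of 99.3, and 2 of its 4 set 1 arrays were below that.

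**Figure D1:**
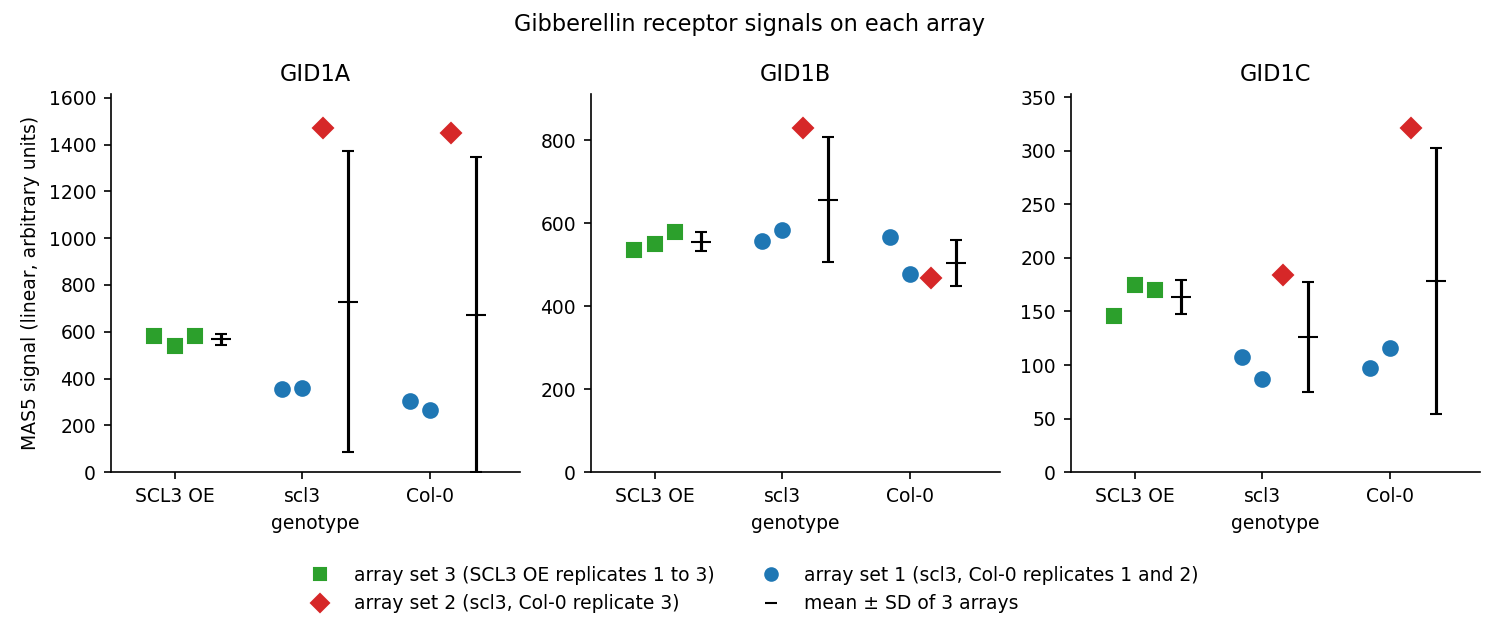
Linear MAS5 signal (arbitrary units) of GID1A, GID1B and GID1C on each of 9 arrays, by genotype, with array sets by colour and shape, beside the mean and SD of the 3 arrays of a genotype. The set 2 arrays of GID1A are at 1471 in scl3 and 1450 in Col-0, above all others, while GID1B has only the scl3 set 2 array at 829.7 apart from the rest.

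The SCL3 OE comparison with Col-0 asks what SCL3 overexpression goes with. On log2(signal + 1) and with group as the only term, the difference (SCL3 OE minus Col-0) was 0.21 ± 0.75 for GID1A, 0.14 ± 0.19 for GID1B and 0.08 ± 0.47 for GID1C (± SE, n = 3 against 3). The limma adjusted p over 13647 tested probe sets was 0.934 for GID1A, 0.812 for GID1B and 0.96 for GID1C. None of the 3 passed, against 1.2% of all tested probe sets. The 95% interval of the fold ran from 0.35 to 3.83 for GID1A, from 0.818 to 1.49 for GID1B and from 0.496 to 2.27 for GID1C, so that a change of more than 2-fold lay within the interval of GID1A and of GID1C.

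The same comparison was repeated with a term that marks the set 2 arrays, which takes out the offset that scl3 and Col-0 replicate 3 share. GID1A then rose in SCL3 OE by 0.94 ± 0.11 on the log2 scale (limma adjusted p = 8.01e-05), a 1.92-fold difference with a 95% interval of 1.62 to 2.27. GID1C was higher by 0.50 ± 0.20 and did not pass (limma adjusted p = 0.0726). GID1B was higher by 0.21 ± 0.15 and did not pass either (limma adjusted p = 0.306), with a 95% interval of 0.923-fold to 1.44-fold. In this fit 17.6% of all tested probe sets rose, 16% fell and 33.6% passed in either direction, so that 1 of 3 receptors passing is close to the share of all probe sets.

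Without the set 2 arrays, 3 SCL3 OE arrays stood against 2 of Col-0. GID1A was higher in SCL3 OE by 0.99 ± 0.11 (limma adjusted p = 4.42e-05) and GID1C by 0.61 ± 0.19 (limma adjusted p = 0.0272), while GID1B, at 0.09 ± 0.11, did not pass (limma adjusted p = 0.544). In this fit 38% of all tested probe sets passed and 19.8% rose. With the set as a random block, the differences were -0.14 for GID1A, 0.11 for GID1B and -0.12 for GID1C, and no tested probe set passed, 0% of all. That fit used 1 correlation within sets (0.91) for all probe sets. The correlation was taken as known, so the uncertainty of the unreplicated set 3 is not fully counted.

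The SCL3 OE comparison with scl3 sets overexpression against loss. With group only, the difference (SCL3 OE minus scl3) was -0.01 ± 0.75 for GID1A, -0.22 ± 0.19 for GID1B and 0.44 ± 0.47 for GID1C (± SE, n = 3 against 3). Their limma adjusted p-values were 0.995, 0.679 and 0.755 in that order, and 1.91% of all tested probe sets passed. With set 2 marked, GID1A rose by 0.72 ± 0.11 (limma adjusted p = 0.000409) and GID1C by 0.86 ± 0.20 (limma adjusted p = 0.00557). GID1B stood at -0.15 ± 0.15 and did not pass (limma adjusted p = 0.436). There 20.2% of all tested probe sets rose, 18.8% fell and 39% passed in either direction.

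Without set 2, SCL3 OE exceeded scl3 by 0.67 ± 0.11 for GID1A (limma adjusted p = 0.000641) and by 0.74 ± 0.19 for GID1C (limma adjusted p = 0.00986), with GID1B at -0.04 ± 0.11 (limma adjusted p = 0.804). In this fit 40.5% of all tested probe sets passed and 20.9% rose. With the random block the differences were -0.36 for GID1A, -0.25 for GID1B and 0.24 for GID1C, and 0.00733% of all tested probe sets passed, none of them a receptor. The 2 comparisons of SCL3 OE share their SCL3 OE arrays and are not independent of each other. In linear signal, GID1A in SCL3 OE was 1.99 times the mean of Col-0 replicates 1 and 2 and 1.59 times that of scl3. GID1C was 1.53 times and 1.68 times those means, and GID1B 1.06 times and 0.974 times. GID1A and GID1C had no overlap between SCL3 OE and the 4 set 1 arrays and GID1B overlapped, and 26.1% of all tested probe sets were higher on each SCL3 OE array than on each set 1 array.

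The scl3 comparison with Col-0 asks what loss of SCL3 goes with. The difference (scl3 minus Col-0) was 0.22 ± 0.75 for GID1A, 0.36 ± 0.19 for GID1B and -0.35 ± 0.47 for GID1C with group only (± SE, n = 3 against 3). Every limma adjusted p rounded to 1, and 0.00733% of all tested probe sets, a single one, passed. At an unadjusted p under 0.05 there were 50 probe sets and none of them was a receptor. The 95% interval of the fold was 0.353 to 3.86 for GID1A, 0.951 to 1.74 for GID1B and 0.366 to 1.67 for GID1C.

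With set 2 marked, the differences were the same and their SE fell to 0.10 for GID1A, 0.14 for GID1B and 0.19 for GID1C. None of the 3 passed, with limma adjusted p-values of 0.606, 0.532 and 0.65 in that order. Unadjusted, GID1B had a limma p of 0.0235 in this fit, where 1143 of 13647 tested probe sets were under 0.05. Without set 2, GID1A was at 0.33 ± 0.12 (limma unadjusted p = 0.0215, adjusted p = 0.758), where 846 were under 0.05 unadjusted. Array sets 1 and 2 each hold both scl3 and Col-0, which allows the comparison within a set. In set 1, the mean signal of scl3 over that of Col-0 was 1.25 for GID1A, 1.09 for GID1B and 0.913 for GID1C (n = 2 against 2). In set 2, with 1 array per genotype and no replicate, the ratio was 1.01 for GID1A, 1.78 for GID1B and 0.574 for GID1C.

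GID1A and GID1B thus had a ratio above 1 in both sets, GID1A at only 1.01 in set 2, and GID1C a ratio below 1 in both. In set 1, the scl3 and Col-0 arrays of GID1B overlapped, as did those of GID1C. The test of whether the scl3 difference itself changed between sets (set 2 minus set 1) gave -0.30 ± 0.20 for GID1A (limma adjusted p = 0.468), 0.70 ± 0.20 for GID1B (limma adjusted p = 0.113) and -0.67 ± 0.34 for GID1C (limma adjusted p = 0.362). None of the 3 passed, beside 1.74% of all tested probe sets. Before adjustment, the p of GID1B was 0.00566, and it rests on 1 array per genotype in set 2.

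The exact 2-sided permutation test of each receptor, between 3 and 3 arrays, cannot give a p below 0.1. For GID1A the exact p was 1 for SCL3 OE against Col-0, 1 for SCL3 OE against scl3 and 0.5 for scl3 against Col-0. For GID1B the exact p-values were 0.3, 0.2 and 0.2 in the same order, and for GID1C 1, 0.4 and 0.6. No receptor had all 3 arrays of one genotype beyond all 3 of another, in either direction. Of all tested probe sets, 19.4% were without overlap and higher in SCL3 OE than in Col-0, and 8.63% lower. The shares were 21.4% higher and 9.87% lower in SCL3 OE against scl3, and 0.982% higher and 1.28% lower in scl3 against Col-0.

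**Figure D2:**
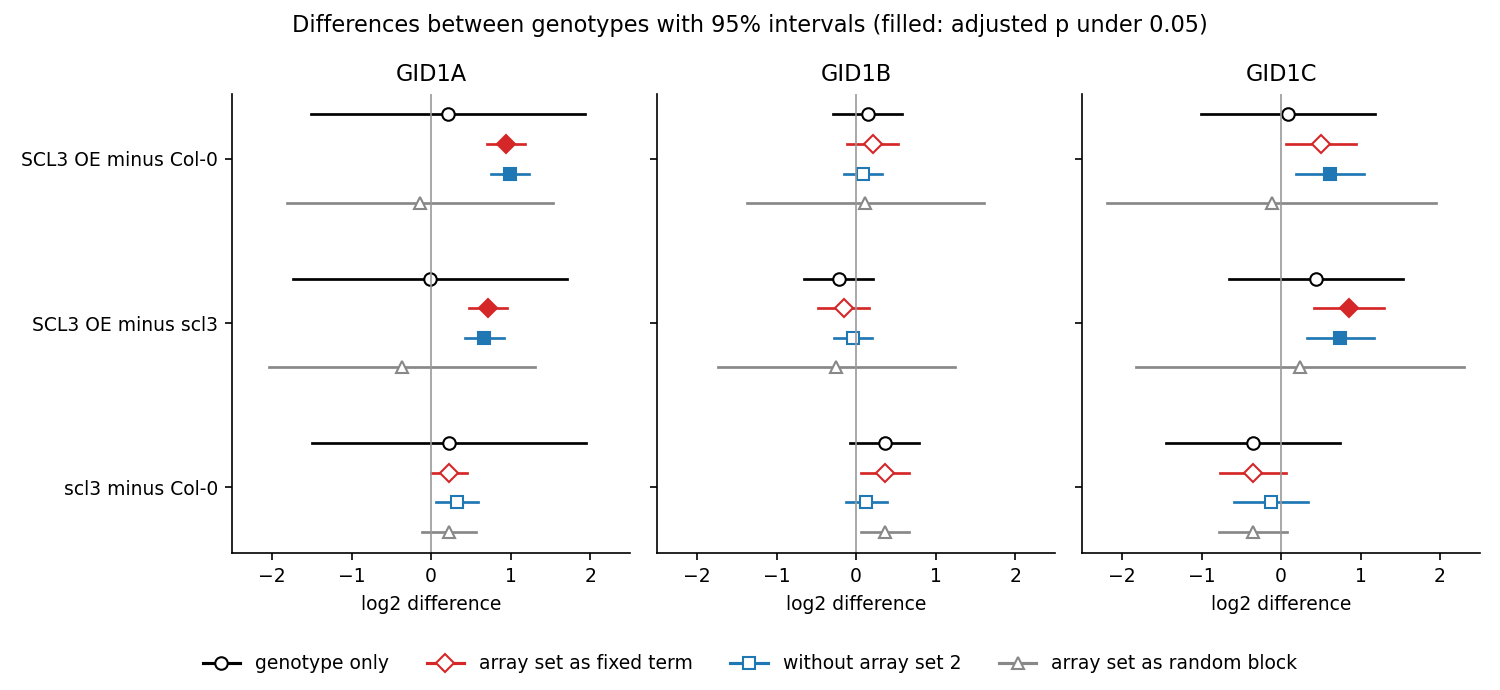
Log2 difference of each receptor with its 95% interval, for each comparison of genotypes, in the fits with genotype only, with the array set as a fixed term, without set 2 and with the array set as a random block (filled symbols, limma adjusted p under 0.05). The fixed term marks set 2 only. The intervals of GID1A narrow from an SE of 0.75 with genotype only to 0.11 with the set marked in the comparisons of SCL3 OE, and those of GID1B cross 0 in both of these comparisons.

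The step between array sets exceeded the differences between genotypes for GID1A and GID1C. On average over scl3 and Col-0, set 2 minus set 1 was 2.19 ± 0.11 on the log2 scale for GID1A (limma adjusted p = 8.72e-09), 1.25 ± 0.20 for GID1C (limma adjusted p = 0.000117) and 0.19 ± 0.15 for GID1B (limma adjusted p = 0.253). In this comparison 76.8% of all tested probe sets passed, 22% upward and 54.7% downward, and the median over all of them was -0.42, or -0.31 after quantile normalization. Relative to that median GID1A stood 2.61 higher, GID1C 1.67 higher and GID1B 0.61 higher, and after quantile normalization 2.54, 1.81 and 0.59 higher. GID1A and GID1C were higher on both set 2 arrays than on all 4 of set 1, as were 23.1% of all tested probe sets.

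The step of GID1A was seen in scl3 and in Col-0 separately, in each on 1 replicate 3 array. The replicate 3 signal of GID1A was 4.12 times the mean of replicates 1 and 2 in scl3 and 5.08 times in Col-0. For GID1C it was 1.89 times in scl3 and 3.01 times in Col-0. GID1B went in opposite directions, with 1.45 times in scl3 and 0.893 times in Col-0. Its step was 0.54 without the Col-0 replicate 3 array and -0.16 without that of scl3. Each of these values rests on the single set 2 array that was left.

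The SCL3 OE arrays did not lie at one place between the sets. The mean linear signal of SCL3 OE lay at 21.7% of the way from set 1 to set 2 for GID1A and at 40.8% for GID1C. For the photosynthesis genes, the same measure was 2.99% for RCA, the activase of Rubisco, and 2.04% for LHCB4.1, a light-harvesting protein. The signal of PRK, a Calvin cycle kinase, was 17.6 to 45.2 in SCL3 OE, 7135 to 9339 in set 2 and 17.0 to 54.7 in set 1. Outside set 2, PRK lay below the filter signal of 99.3, so no fold is given for it. Set 2 over set 1 was 4.54 for GID1A and 2.48 for GID1C, against 84.0 for RCA and 75.4 for LHCB4.1. RCA, at 875 to 1131 in SCL3 OE against 212 to 380 in set 1, was higher in SCL3 OE without overlap. LHCB4.1, at 599 to 714 against 193 to 297, was too, as were GID1A, GID1C and 26.1% of all tested probe sets.

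The balance between receptors was followed on each array as the difference of their log2 signals. Because hybridization differs between probe sets, only its change between arrays is read here and not its level. GID1A minus GID1B was -0.03 to 0.11 in SCL3 OE, 0.83 and 1.63 in set 2, and -0.90 to -0.64 in set 1, with no overlap among the 3 sets. How many other pairs of probe sets were without overlap among the sets was not counted. GID1A minus GID1C was 1.62 to 1.99 in SCL3 OE, 2.17 and 2.99 in set 2, and 1.19 to 2.03 in set 1, where SCL3 OE overlapped set 1. GID1B minus GID1C was 1.65 to 1.87 in SCL3 OE, 2.16 in scl3 and 0.54 in Col-0 of set 2, and 2.03 to 2.73 in set 1.

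The ratio of GID1A to GID1B thus differed among the array sets. For the SCL3 OE arrays, which are a set of their own, overexpression and an offset of that set cannot be told apart. Between genotypes, 9 exact 2-sided permutation tests of these balances gave a lowest p of 0.1, for GID1B minus GID1C in SCL3 OE against scl3 (difference -0.66). After Benjamini-Hochberg adjustment over the 9 exact tests, that p was 0.9.

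**Figure D3:**
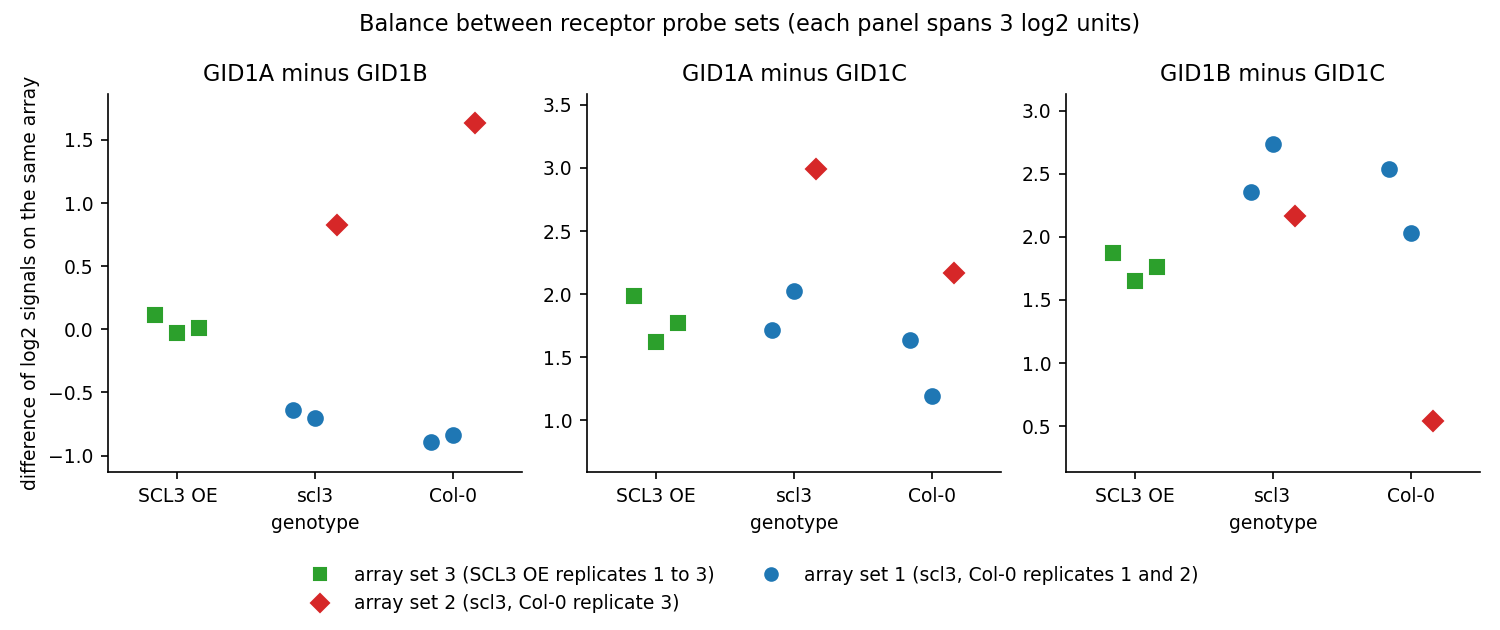
Difference of log2 signals between pairs of receptors on each of the 9 arrays, by genotype, with array sets by colour and shape. GID1A minus GID1B falls into 3 levels, -0.03 to 0.11 in SCL3 OE, which is all of set 3, 0.83 and 1.63 in set 2 and -0.90 to -0.64 in set 1. How many other pairs of probe sets do so was not counted.

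Other genes of gibberellin signalling were taken from a list of 23, of which 8 had a named, tested probe set, the 3 receptors included. With group only, none of the 8 passed in any of the 3 comparisons of genotypes. With set 2 marked, 2 rose, 1 fell and 5 did not pass in SCL3 OE against Col-0, with a median difference of 0.24 beside 0.02 over all tested probe sets. The 3 of 8 that passed stand beside 33.6% of all tested probe sets (17.6% higher and 16% lower), and with the set as a random block none of the 8 passed. GID1A and JKD rose and SLY2 fell. JKD, a zinc finger protein of the ground tissue that binds DELLA proteins, was higher by 0.81 ± 0.19 (limma adjusted p = 0.00709). SLY2, an F-box protein for DELLA breakdown, was lower, at -1.82 ± 0.18 (limma adjusted p = 2.17e-05).

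The 3 other signalling genes of that list did not pass in the same fit. SLY1, the main F-box protein for DELLA breakdown, had a difference of -0.03 (limma adjusted p = 0.847). SPY, an O-fucosyltransferase that modifies DELLA proteins, had 0.28 (limma adjusted p = 0.112), and SEC, an O-GlcNAc transferase that modifies them too, had -0.06 (limma adjusted p = 0.685). Against scl3, 4 of the 8 rose in SCL3 OE, namely GID1A, GID1C, JKD and SPY, and SLY2 fell, beside 20.2% of all tested probe sets that rose and 18.8% that fell. With the random block, 1 of all tested probe sets passed in that comparison and none of the 8 did. In scl3 against Col-0 none passed.

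Between set 2 and set 1, 3 of the 8 rose and 2 fell, beside 22% and 54.7% of all tested probe sets. SLY1 rose with GID1A and GID1C, by 0.36 (limma adjusted p = 0.00982), while SLY2, at -1.16 (limma adjusted p = 8.08e-05), and SEC, at -1.01 (limma adjusted p = 2.57e-06), fell. SLY2 was thus lower both in SCL3 OE and in set 2, and GID1A higher in both.

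Of 26 listed genes of gibberellin metabolism and transport, only 3 transporters were tested. These were AT1G68570 (NPF3.1), SWEET13 and SWEET14, all known to move gibberellin across membranes. With set 2 marked, all 3 fell in SCL3 OE against Col-0, as did 16% of all tested probe sets, and with the set as a random block none of them passed. The difference was -1.24 ± 0.25 for AT1G68570 (limma adjusted p = 0.00273), -1.76 ± 0.19 for SWEET13 (limma adjusted p = 4.06e-05) and -2.07 ± 0.23 for SWEET14 (limma adjusted p = 5.12e-05). With group only, none of them passed. Between set 2 and set 1, AT1G68570 rose by 2.39 while SWEET13 and SWEET14 fell.

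Of 12 listed DELLA targets and gibberellin response genes, 3 were tested. XERICO, a RING protein gene that DELLA proteins activate, rose in SCL3 OE against Col-0 by 0.55 ± 0.14 with set 2 marked (limma adjusted p = 0.0118). EXPA8, an expansin for wall loosening, fell, at -1.07 ± 0.23 (limma adjusted p = 0.00442). AT2G31730, a basic helix-loop-helix gene, was at 0.52 ± 0.22 and did not pass (limma adjusted p = 0.0841). In this fit 33.6% of all tested probe sets passed, and none of these 3 passed with group only or with the set as a random block.

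GID1 receptors belong to the carboxylesterase superfamily and are related in sequence to plant carboxylesterases. Of 17 listed carboxylesterase genes, 9 were tested, and 1 of them passed with group only. In that fit 1.2% of all tested probe sets passed against Col-0 and 1.91% against scl3. AT5G06570 rose in SCL3 OE against Col-0 by 1.54 ± 0.26 (limma adjusted p = 0.0382) and against scl3 by 1.57 (limma adjusted p = 0.0283). With set 2 marked it rose by 1.48 ± 0.22 against Col-0 (limma adjusted p = 0.00036), where 33.6% of all tested probe sets passed. With the set as a random block it did not pass. The other 8 did not pass against Col-0 with group only or with set 2 marked. Against scl3 with set 2 marked, 1 of the 9 rose and 1 fell, beside 20.2% and 18.8% of all tested probe sets. Between set 2 and set 1 the family had 1 gene that rose and 5 that fell, beside 22% and 54.7% of all tested probe sets.

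**Figure D4:**
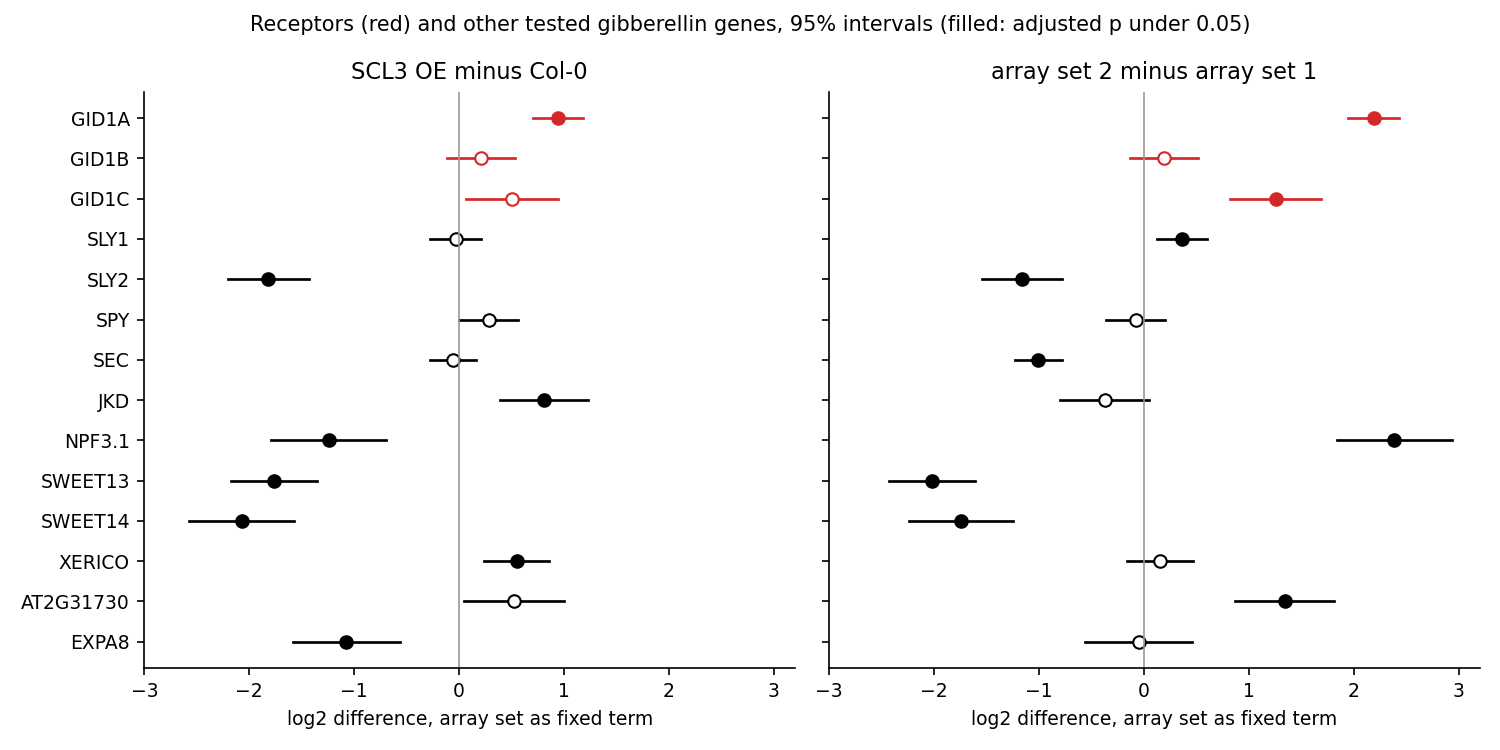
Log2 differences with 95% intervals for the receptors (red) and the other tested gibberellin genes, in the fit with the array set as a fixed term, for SCL3 OE minus Col-0 and for array set 2 minus array set 1. The fixed term marks set 2 only. GID1A is right of 0 in both panels, at 0.94 and 2.19, SLY2 is left of 0 in both, at -1.82 and -1.16, and AT1G68570 (NPF3.1) changes side, at -1.24 and 2.39.

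The genes with the profile most like a receptor's were found over the 9 arrays, as the smallest root mean square difference between centred log2 profiles among 7338 candidate genes. For GID1A they were AT1G55000 (0.10), AT4G36530 (0.14), AT1G48450 (0.15) and AT1G10020 (0.16), beside a root mean square of 0.85 of GID1A about its own mean. Their steps from set 1 to set 2 were 1.96 to 2.20 on the log2 scale. The nearest profiles to GID1C, whose own root mean square was 0.55, were AT1G51550 (0.15), AT1G49500 (0.15), UGT72B3 (0.16), a glycosyltransferase gene, and AT2G31730 (0.16). For GID1B, at 0.22, they were AT5G27760 (0.087), AT3G28480 (0.14), AT1G53440 (0.14) and AT5G52450 (0.14). These values describe the same arrays that set the receptors' profiles and have no test.

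Neighbouring genes on the chromosome gave other values than the receptors. AT3G05130, next to GID1A, stood at -1.32 between set 2 and set 1 (limma adjusted p = 7.17e-05) and at -0.10 in SCL3 OE against Col-0 with set 2 marked (limma adjusted p = 0.732). AT3G05100, the neighbour but one on the other side, was at 0.04 (limma adjusted p = 0.762) and 0.26 (limma adjusted p = 0.124). AT5G27330, next to GID1C, fell in both, at -1.52 (limma adjusted p = 2.84e-06) and -0.73 (limma adjusted p = 0.0036).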

How the data were processed

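The authors deposited 1 linear intensity for each probe set and array. The submitters' processing notes name MAS5 and Affymetrix Expression Console 1.1. Each array's trimmed mean was 500.04 to 500.05 and its median plant signal 158.5 to 191.1. An array has no read depth, and the number of arrays limits the precision. The samples are biological triplicates in the series' own words, and p-values measure only the spread between these samples. Groups and replicate numbers came from the titles.

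Signals were taken as log2(signal + 1), which understates changes of dim probe sets. The 64 control probe sets were left out, and 13647 plant probe sets with a mean above the 40th percentile were tested. All 3 receptors passed this filter. The annotation named 13513 plant probe sets with 1 gene and 503 with several, and left 8730 unnamed, SCL3's own among them, so SCL3 was not analysed here. RefSeq's TAIR10.1 table matched 13436 for current symbols. Differences were fitted with limma 3.58.1 (R 4.3.3) on all 9 arrays, with group as the only term, an intensity trend, 2-sided tests and Benjamini-Hochberg adjustment over all tested probe sets at 0.05. It was tested on simulated data. Array sets came from complete linkage of 45 spiked-in control probe sets, cut into 3.

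The members and lists were chosen with earlier results of these data known. Named were the members, the 4 genes with the nearest profile to each, and up to 6 tested genes per list with the largest difference in a comparison. A gene with several probe sets was represented by the brightest. The neighbouring genes, the carboxylesterase named alone and the marker genes were named beyond that rule or after their values were seen. Deviations from group means of same-numbered scl3 and Col-0 arrays correlated at 0.90, 0.89 and 0.95. Those of scl3 replicate 1 with Col-0 replicate 2 correlated at 0.89, and of scl3 replicate 2 with Col-0 replicate 1 at 0.86. The numbers thus set replicate 3 apart, following the array sets, and do not pair replicates 1 and 2 of scl3 and Col-0. Deviations of SCL3 OE correlated at -0.10, 0.07 and -0.09 with those of Col-0, so the numbers do not pair SCL3 OE either. Figures were drawn with matplotlib 3.10.9.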

Additional observations from a re-analysis of the deposited data

How the results depend on the processing

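The alternatives that treat the array sets moved the results of SCL3 OE. Against Col-0, 164 probe sets passed with group only and 81 with only the 2 groups fitted. With the set as a fixed term 4590 passed, and without set 2 it was 5182. With the set as a random block 0 passed (250 at an unadjusted p under 0.05, limma). The fixed term marks set 2 alone and takes out no offset of the SCL3 OE arrays. With the set term, in fits chosen after seeing the data, 4736 passed with an offset of 32 and 4512 after quantile normalization. Against scl3, where 260 passed, the counts were 5319 with the fixed term, 5521 without set 2, 1 with the random block, 5421 with the offset and 5235 after quantile normalization. Leaving out 1 array gave 4 (without SCL3 OE replicate 3) to 327 (without scl3 replicate 3) against Col-0 and 8 (without SCL3 OE replicate 3 or scl3 replicate 1) to 658 (without Col-0 replicate 3) against scl3. Each of the 9 arrays moved these counts by over 1.5 times, except scl3 replicate 3 against scl3 (224).

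Among the receptors, GID1A against Col-0 was 0.94 with the set term, 0.99 without set 2, -0.14 with the random block, 0.87 with the offset of 32 and 0.94 after quantile normalization, both with the set term, and GID1C was 0.61 without set 2, -0.12 with the random block and 0.59 after quantile normalization (limma adjusted p = 0.0375). GID1A against scl3, -0.01 with group only, was 0.72 with the set term, 0.67 without set 2, 0.67 with the offset and 0.71 after quantile normalization. GID1C against scl3 was 0.86 with the set term, 0.74 without set 2, 0.70 with the offset and 0.94 after quantile normalization. With 1 array left out and group only, GID1A ran from -0.23 to 0.99 and GID1C from -0.24 to 0.61 against Col-0, and GID1A from -0.35 to 0.67 and GID1C from 0.21 to 0.74 against scl3. GID1B ran from 0.09 to 0.23 against Col-0 and from -0.32 to -0.04 against scl3. In scl3 against Col-0, GID1A ran from -0.46 to 1.00, GID1B from 0.18 to 0.47 and GID1C from -0.68 to 0.18. Set 2 minus set 1 ran from 2.04 to 2.34 for GID1A, from -0.16 to 0.54 for GID1B and from 0.92 to 1.59 for GID1C. With set 2 marked and all arrays kept, 33.6% of all tested probe sets passed against Col-0 and 39% against scl3. Those shares were not counted with 1 array left out. With set 2 marked and 1 array left out, also chosen after seeing the data, GID1A stayed past the threshold. It was at 0.84 to 0.99 against Col-0 and 0.67 to 0.76 against scl3. GID1C stayed past the threshold against scl3, at 0.74 to 1.04. GID1C against Col-0 ran from 0.33 to 0.61 and passed without Col-0 replicate 3 (limma adjusted p = 0.0262), scl3 replicate 1 (0.0499) or scl3 replicate 3 (0.0229). The cause of these changes was not tested.

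With a replicate block, GID1A against Col-0 was 0.21 ± 0.48 (limma adjusted p = 0.839), and in scl3 against Col-0 with only these 2 genotypes it was 0.22 ± 0.12 (limma adjusted p = 0.858). The block changed no call of a receptor. The 60th-percentile filter left out GID1C and gave no value for it. Probe sets near background limit GID1C, and no detection calls were used.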
